A study of Saccharomyces cerevisiae with 10 samples.

Results

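The arrays read at 15 and 20 µg/ml benomyl were set against those at 5 and 10 µg/ml, 2 arrays against 2, which are 4 of the 10 arrays in the series. They were chosen by the dose in their labels. The question was which shifts of yeast deletion strains seen at 5 and 10 µg/ml were smaller, still present or on the other side of the median at 15 and 20 µg/ml.

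All 4 arrays share their material and layout. A pool of 5896 heterozygous knockout strains of Saccharomyces cerevisiae was sporulated, and MATa haploids were grown out at 30 °C on magic medium, which lets only such haploids grow. The pools with benomyl grew for 3 days at 15 µg/ml and 4 days at 20 µg/ml, against 2 days at both 5 and 10 µg/ml. Each was paired on its array with a pool grown for the same number of days without benomyl. DNA tags that identify the strains were labelled with Cy3 in the benomyl pool and Cy5 in the pool without it. There was 1 array for each dose, so each pair of arrays differs in dose, and the higher pair also in days. Dose and days cannot be told apart, and the p-values below measure only the spread between arrays of neighbouring doses. The labels do not say whether the arrays came from separate sporulations.

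Benomyl binds tubulin and breaks down microtubules. A newly made tubulin chain is handed by the prefoldin complex to a chaperonin and is then assembled into the alpha and beta dimer by a set of folding cofactors, so cells that lack these proteins are known for their sensitivity to the drug. Peroxisomes, which import their enzymes through proteins encoded by PEX genes, also matter below, as does the vacuole, which is acidified by a proton pump and receives membrane proteins sorted by the ESCRT complexes.

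The values are tag signal ratios on the log2 scale, set so that the median spot of its array is 0 and averaged over the spots of a strain. In the likely direction, signal without drug is divided by signal with drug, so that a positive value means a strain scarcer with benomyl than the median strain, and a negative value one that was more abundant. That direction rests on the dyes in the labels, and with the opposite direction all signs below would be reversed. A strain is called above or below here when it lay 2-fold or more (1 on the log2 scale) from its array's median. Tags named 5325 strains. RAD4 had no value at 10 µg/ml, and the others had values on all 4 arrays. A deletion strain of a gene that haploids need is not thought to exist as a haploid, and signal under such a name need not come from one.

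The arrays at 15 and 20 µg/ml were narrower than those at 5 and 10 µg/ml. The SD over strains was 0.72 and 0.73 at 15 and 20 µg/ml, against 0.89 and 0.86 at 5 and 10 µg/ml. The share of strains 2-fold off was 11.8% and 12.8% on the first pair and 18.4% and 18.1% on the second, and it was 6.25% without drug. Across 5325 strains, Pearson's r was 0.75 between the arrays at 15 and 20 µg/ml, 0.63 between those at 5 and 10 µg/ml over 5324 strains, and 0.56 to 0.67 between arrays of different pairs. Strains share their arrays and tags, so these values describe the arrays and carry no test. The 10 µg/ml array stands apart in its form, since only 3.59% of its ratios were whole hundredths, against 99.9% or more on each of the other 9.

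No strain passed the test of the difference between the pairs. In limma's test over all strains, with p-values adjusted by Benjamini and Hochberg, 0 strains (0% of 5325) were higher and 0 (0%) were lower at 15 and 20 µg/ml, and the lowest adjusted p was 0.450. At an unadjusted p under 0.05, 325 strains (6.1%) were higher and 128 (2.4%) lower, so 71.7% of these were higher. Quantile normalization put that split at 60.8%. An exact permutation test of 2 arrays against 2 cannot go below a two-sided p of 0.333. The values that follow are therefore descriptions of these arrays. As a measure of size, strains were counted whose values at 15 and 20 µg/ml both lay on one side of both values at 5 and 10 µg/ml, with pair means at least 2-fold apart. There were 261 such strains (4.9%) on the higher side and 54 (1.01%) on the lower side. How far these counts lie apart depended on the arrays and the scaling. They were 365 and 96 without the 15 µg/ml array, 295 and 168 without the 20 µg/ml array, 384 and 119 without the 5 µg/ml array, and 439 and 207 without the 10 µg/ml array. After quantile normalization they were 187 and 90.

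**Figure D1:**
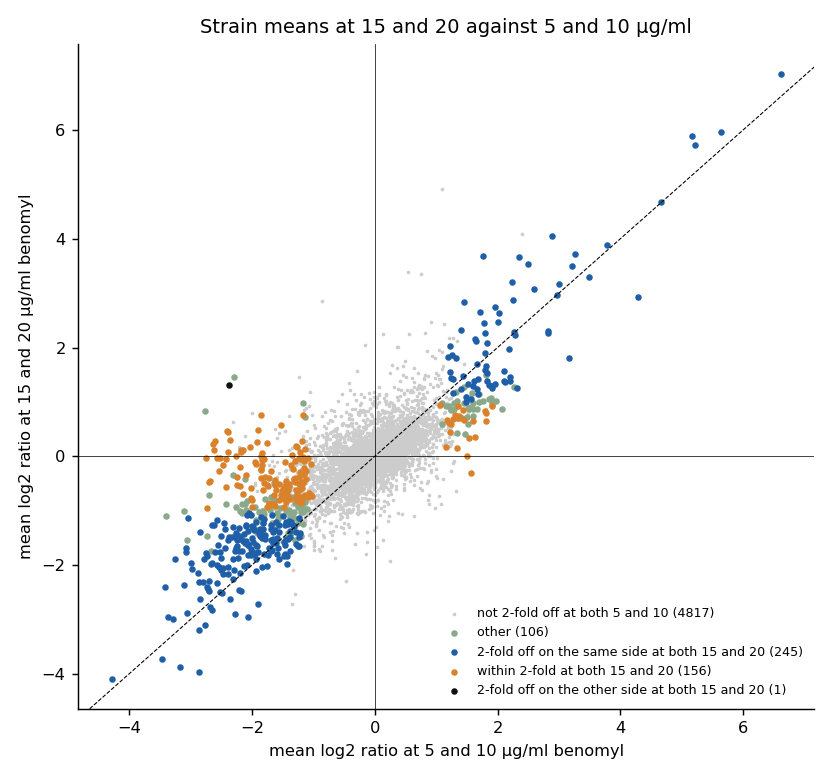
Mean log2 ratio of each strain at 15 and 20 µg/ml benomyl (vertical axis) against its mean at 5 and 10 µg/ml (horizontal axis), 1 point per strain, with the dashed line where both are equal. Coloured strains were 2-fold off on both arrays at 5 and 10 µg/ml. Those within 2-fold at both 15 and 20 µg/ml (156, orange) lie mostly on the negative side, and 1 strain, PZF1 (black), lies across the median.

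Strains above the median on both arrays at 5 and 10 µg/ml numbered 130 (2.44% of all strains). Of these, 71 (54.6%) were above on both arrays at 15 and 20 µg/ml, 24 (18.5%) lay within 2-fold on both and 0 lay below on both. The other 35 had 1 array on each side of the limit. Held strains did not outnumber those within 2-fold when an array of the lower pair was left out. Without the 5 µg/ml array 101 held and 114 lay within 2-fold, and without the 10 µg/ml array 80 held and 179 lay within 2-fold. Without the 20 µg/ml array 48 lay within 2-fold. Their median was 1.26 at 15 and 20 µg/ml, against 1.67 at 5 and 10 µg/ml. By comparison, only 11 strains (0.207%) were above on both the arrays without drug and with 1 µg/ml.

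Strains below the median at 5 and 10 µg/ml were more numerous. Of 378 such strains (7.1%), 174 (46.0%) were below on both arrays at 15 and 20 µg/ml, 132 (34.9%) lay within 2-fold on both, 71 were mixed, and PZF1 alone was above on both. Their median was -1.12 at 15 and 20 µg/ml, against -1.83 at 5 and 10 µg/ml. Without the 5 µg/ml array the count within 2-fold was 340, and without the 10 µg/ml array 320, since more strains are then chosen.

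Choosing strains for being far off on a pair of arrays makes some return certain on any other pair, so the same classes were counted in the other direction. Of 142 strains (2.67%) above on both arrays at 15 and 20 µg/ml, 28 (19.7%) lay within 2-fold at both 5 and 10 µg/ml, much as in the forward count. Of 226 strains (4.24%) below on both at 15 and 20 µg/ml, 174 (77.0%) were also below at both lower doses and 15 (6.64%) lay within 2-fold there. The 28 became 109 without the 15 µg/ml array, 74 without the 20 µg/ml array and 56 without the 10 µg/ml array, and the 15 became 74, 95 and 40 without the same arrays and 27 without the 5 µg/ml array. The 132 against 15 on the negative side depend on the spread of the arrays. They were 78 and 34 once the arrays had been given equal spread, and after quantile normalization 60 and 50. Strains can also be chosen on a single array. The 643 strains below at 5 µg/ml had medians of -1.60, -1.17, -0.75 and -0.72 at 5, 10, 15 and 20 µg/ml. The 378 strains below at 20 µg/ml had medians of -1.56, -1.39, -1.16 and -1.39 at the same doses.

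**Figure D2:**
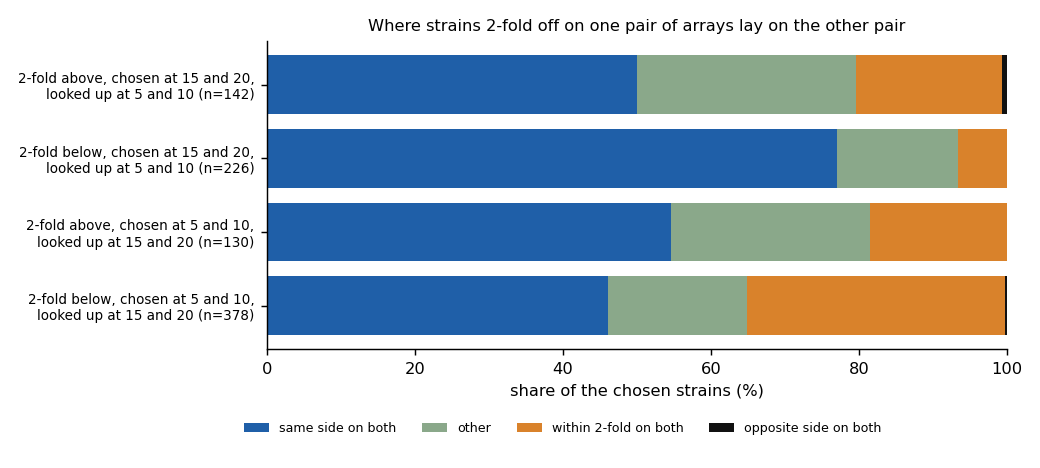
Share (%) of strains 2-fold above or below the median on both arrays of a pair that lay on the same side, within 2-fold, on the opposite side or in another position on the other pair. Of strains below at 15 and 20 µg/ml, 6.64% lay within 2-fold at both 5 and 10 µg/ml, and of strains below at 5 and 10 µg/ml, 34.9% lay within 2-fold at both 15 and 20 µg/ml.

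The plot of strain means shows the strains within 2-fold at 15 and 20 µg/ml mainly on its negative side, and the plot of shares shows the unequal counts of both directions on the negative side. Not all of these shifts ended there. Of the 132 strains below at 5 and 10 µg/ml and within 2-fold at 15 and 20 µg/ml, 55 (41.7%) were below again on all 4 arrays from 25 to 40 µg/ml. These arrays had 4 days of selection, as had the 20 µg/ml array. Of the 174 strains below on both pairs, 110 (63.2%) were below on all 4 of those arrays. Among all 5325 strains, 313 were.

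A group of this kind was the peroxisome list. Of its 18 genes 16 were measured, and 12 of the strains were below at both 5 and 10 µg/ml. All 12 lay within 2-fold at both 15 and 20 µg/ml, and all 12 were below again on every array from 25 to 40 µg/ml. The list median was -0.14, 0.00, -3.08, -1.55, -0.17, 0.28, -2.56, -3.70, -4.16 and -4.31 over the doses 0, 1, 5, 10, 15, 20, 25, 30, 35 and 40 µg/ml. Its median difference between the pairs was 2.22, against -0.02 for all strains, and it ranged from 1.67 without the 5 µg/ml array to 2.80 without the 10 µg/ml array. Of the 16 strains, 12 lay apart and 2-fold or more higher, and 0 lower, against 4.9% and 1.01% of all strains. Under equal spread 11 strains were below at 5 and 10 µg/ml and all 11 lay within 2-fold at 15 and 20 µg/ml, and after quantile normalization the same held for 10 of 10.

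**Figure D3:**
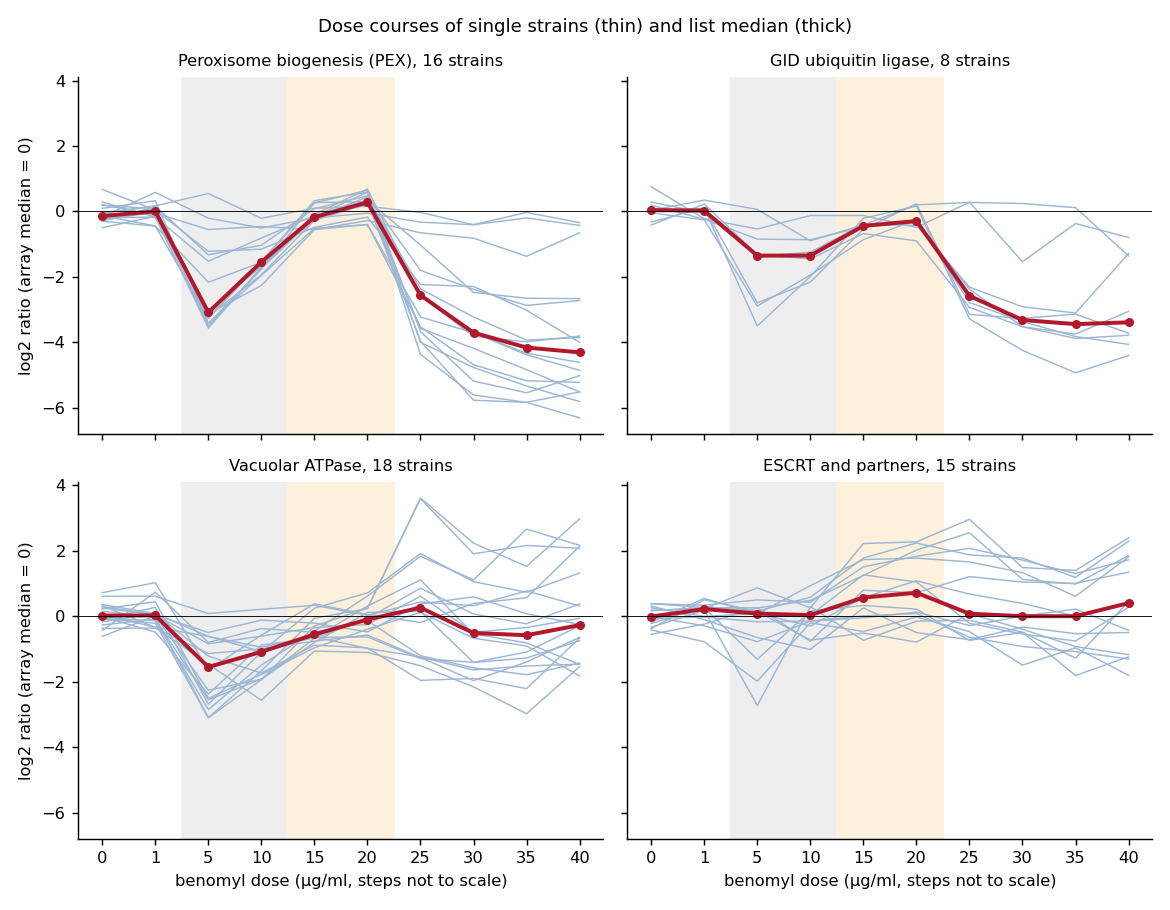
Log2 ratio (array median = 0) at each of the 10 doses for every measured strain (thin lines) and the list median (thick line with points) of 4 gene lists, with 15 and 20 µg/ml shaded orange and 5 and 10 µg/ml shaded grey. The peroxisome median lies at -0.17 and 0.28 in the orange zone, against -3.08 and -1.55 in the grey zone, and at -2.56 to -4.31 from 25 to 40 µg/ml.

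Among members of the import machinery, the receptor, docking and ligase strains named here had similar values, while some other members, given below, had smaller ones. Strains without PEX5 (YDR244W), the receptor for most matrix enzymes, were at 0.33 and 0.59 at 15 and 20 µg/ml, against -3.27 and -1.54 at 5 and 10 µg/ml, a difference of 2.86 ± 0.62 (limma SE, 2 arrays against 2). Strains without PEX14 (YGL153W), of the docking complex at the peroxisomal membrane, were at -0.27 and 0.23, against -3.21 and -1.94, a difference of 2.55 ± 0.50. Its docking partners PEX13 and PEX17 differed by 2.65 ± 0.56 and 2.22 ± 0.35. In each of these strains both values at 15 and 20 µg/ml lay above both values at 5 and 10 µg/ml. PEX2 and PEX10, which form the ubiquitin ligase that recycles the receptor, each differed by 2.85, with SE of 0.63 and 0.70. PEX8, which joins docking and ligase complexes, had the largest difference of the list at 2.88 ± 0.59, with 0.27 and 0.30 at 15 and 20 µg/ml, against -3.42 and -1.77 at 5 and 10 µg/ml.

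Strains that lack membrane assembly of the organelle had similar values. PEX3 (YDR329C), the membrane anchor on which peroxisomal membranes are built, gave -0.52 and -0.40 at 15 and 20 µg/ml, against -3.42 and -1.95 at 5 and 10 µg/ml. PEX19, the carrier of membrane proteins that binds PEX3, gave -0.24 and 0.26, against -2.16 and -1.56. Also of the import machinery, PEX15, which anchors the export motor, differed by 2.74 ± 0.66. Within that machinery, differences were smaller for PEX6, an ATPase of the motor, at 1.46 ± 0.26. The same held for the receptor-modifying enzyme PEX4 and its anchor PEX22, at 1.28 ± 0.35 and 0.86 ± 0.22. For these 3 strains the tags did not match: the sections of the layout, taken to hold different tags of a strain, gave 0.43 and 2.49 for PEX6, 2.86 and -0.30 for PEX4, and 2.42 and -0.70 for PEX22.

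Members with narrower tasks lay near the median on all 4 arrays. PEX7, the receptor for a smaller class of enzymes, was at -0.56 and -0.28 at 15 and 20 µg/ml, against -0.55 and -0.46 at 5 and 10 µg/ml. PEX18, a co-receptor of PEX7, differed by 0.23 ± 0.23, and PEX25, which acts in the growth of peroxisome number, by -0.04 ± 0.32. Of 9 measured strains in a list of fatty acid beta-oxidation and glyoxylate cycle genes, whose enzymes work in peroxisomes in part, 0 were below at both 5 and 10 µg/ml. That list's median difference was 0.03. It was added after values were seen. POX1, the first enzyme of beta-oxidation, was at -0.39 and -0.43, against -1.58 and -0.82, and POT1, the last, at 0.21 and 0.12, against 0.07 and 0.19.

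Strains of the GID ubiquitin ligase, which degrades enzymes of glucose synthesis when sugar returns, followed the same course over doses. This list was also added after values were seen. Of 8 strains, 5 were below at both 5 and 10 µg/ml, all 5 lay within 2-fold at both 15 and 20 µg/ml, and all 5 were below on every array from 25 to 40 µg/ml. VID28 (YIL017C), a scaffold subunit, was at -0.21 and 0.16 at 15 and 20 µg/ml, against -3.50 and -1.99 at 5 and 10 µg/ml, with -3.28, -4.25, -4.93 and -4.40 at 25, 30, 35 and 40 µg/ml. VID30 and GID8, also of its core, differed by 2.32 ± 0.39 and 1.86 ± 0.43. The ring subunit RMD5 and the conjugating enzyme UBC8 differed by 0.90 ± 0.20 and 0.60 ± 0.21. In the plot of dose courses the list median stayed negative at 15 and 20 µg/ml, at -0.44 and -0.29, within 2-fold of the array median. VID24, which binds substrates, FYV10 and GID7 lay within 2-fold on all 4 arrays. Under equal spread 4 of 5, and after quantile normalization 3 of 5, lay within 2-fold at 15 and 20 µg/ml.

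The vacuolar ATPase, the proton pump of the vacuole, gave another course. Of 18 strains measured, 10 were below at 5 and 10 µg/ml, and 9 of these lay within 2-fold at 15 and 20 µg/ml, but 0 of the 9 were below on all arrays from 25 to 40 µg/ml. With equal spread, or after quantile normalization, the count was 5 of 8. The list's median difference was 1.13. Of the 18 strains, 9 were apart and 2-fold higher and 0 lower, against 4.9% and 1.01% of all strains. VMA1 (YDL185W), the catalytic subunit, was at -0.31 and 0.25 at 15 and 20 µg/ml, against -3.10 and -1.94 at 5 and 10 µg/ml, a difference of 2.49 ± 0.47. Beyond that range it lay at 3.59, 1.90, 2.16 and 2.07 at 25, 30, 35 and 40 µg/ml, on the other side of the median. VMA5 and VMA8, which belong to the same peripheral sector, differed by 2.47 ± 0.53 and 2.25 ± 0.61, and VMA4, of the stalk, by 2.37 ± 0.59.

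Other parts of the pump spread more widely. VMA2, the partner of VMA1, and VMA3, of the membrane ring, differed by 1.87 ± 0.35 and 1.75 ± 0.38, and at 25 to 40 µg/ml VMA3 lay between -1.42 and 0.15. VPH1, the membrane subunit specific to the vacuole, was the 1 strain below on all 4 arrays, at -1.07 and -1.11 at 15 and 20 µg/ml, against -1.47 and -2.57 at 5 and 10 µg/ml. STV1, its counterpart in the Golgi, was within 2-fold throughout the 4, with a difference of -0.04 ± 0.25. Among the assembly factors of the endoplasmic reticulum, VPH2 and PKR1 were below at 5 and 10 µg/ml and within 2-fold at 15 and 20 µg/ml, by differences of only 0.55 ± 0.26 and 0.40 ± 0.21, and VMA21 differed by -0.02 ± 0.26.

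Shifts that held on both pairs were led by the tubulin folding pathway. All 7 strains had a positive difference, with a median of 0.83, and 3 of them were above on all 4 arrays. CIN1 (YOR349W), a cofactor that takes up beta-tubulin, was at 7.12 and 6.93 at 15 and 20 µg/ml, against 6.52 and 6.71 at 5 and 10 µg/ml. CIN2, which acts with it, was at 6.13 and 5.78, against 6.01 and 5.28. TUB3, the minor alpha-tubulin, was at 5.95 and 5.51, against 4.36 and 6.06. None of these differences, between 0.31 and 0.52, exceeded its SE by more than 2-fold, so no further shift was detectable beyond that seen at the lower doses.

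None of the other cofactor strains was above on both arrays at 5 and 10 µg/ml. In each of them both values at 15 and 20 µg/ml lay higher than both at 5 and 10 µg/ml. CIN4 (YMR138W), a small GTPase of the pathway, was at 4.46 and 5.37 at 15 and 20 µg/ml, against -0.23 and 2.43 at 5 and 10 µg/ml. Its difference of 3.81 ± 0.96 was the largest of all strains. ALF1 (YNL148C), which binds alpha-tubulin, was at 0.64 and 2.29, against -2.73 and -1.85, a difference of 3.76 ± 0.66 that its tags gave as 3.44 and 4.08. ALF1 thus lay above on the 20 µg/ml array and below on both arrays of the lower pair. PAC2, which also takes up alpha-tubulin, lay close to the 2-fold limit at 15 and 20 µg/ml (-1.09 and -0.90) and below it at 5 and 10 µg/ml (-1.67 and -1.98). The sections of PAC2 did not match. The first averaged -0.55 at 15 and 20 µg/ml, against -0.67 at 5 and 10 µg/ml, and the second -1.45, against -3.08. RBL2, a binder of beta-tubulin, was within 2-fold on all 4 arrays and differed by 0.85 ± 0.27. The list's median difference ranged from 0.42 after quantile normalization to 1.89 with equal spread.

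All 6 prefoldin strains were above on all 4 arrays. On the first section of the layout alone 4 were, on the second alone 5, and under equal spread 5. In the first section GIM3 averaged -0.18 at 15 and 20 µg/ml, against -0.22 at 5 and 10 µg/ml, and PAC10 averaged 0.65, against 0.72. PFD1 was at 6.03 and 5.73 at 15 and 20 µg/ml, against 4.00 and 6.32 at 5 and 10 µg/ml, and GIM5 was at 5.01 and 4.33, against 4.12 and 5.19. In PFD1, GIM5, YKE2 and PAC10 the 5 µg/ml array was the lowest and the 10 µg/ml array lay above or level with those at 15 and 20 µg/ml, so the pairs overlapped. The list's median difference was 0.45, and it was 0.00 without the 15 µg/ml array, 0.77 without the 20 µg/ml array, -0.40 without the 5 µg/ml array and 1.05 without the 10 µg/ml array. GIM4 was the 1 prefoldin strain with its pairs apart by 2-fold, at 2.90 and 4.47, against 1.09 and 2.44, and its sections gave 3.81 and 0.03. Its first section averaged 7.57 at 15 and 20 µg/ml, against 3.76 at 5 and 10 µg/ml. The second lay near the median on both pairs, at -0.20, against -0.23.

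**Figure D4:**
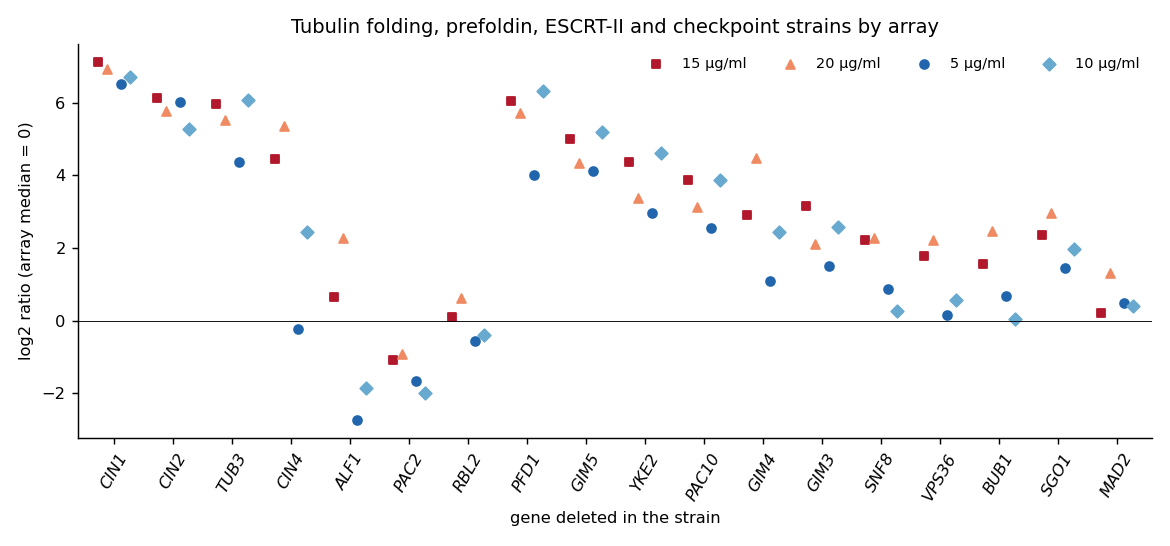
Log2 ratio (array median = 0) of 18 named strains on single arrays, with 15 and 20 µg/ml (red) left of 5 and 10 µg/ml (blue) for each strain. CIN1, CIN2 and TUB3 are above 4 on every array, while CIN4 and ALF1 are at 4.46 and 5.37, and at 0.64 and 2.29, on the red arrays, against -0.23 and 2.43, and -2.73 and -1.85, on the blue ones.

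The spindle checkpoint, which delays anaphase until chromosomes are attached, had 4 of 8 strains above at both 15 and 20 µg/ml, and 1 of these was above at both 5 and 10 µg/ml too. Of all strains, 2.67% were above at both 15 and 20 µg/ml. The list median was 0.82 and 1.26 at 15 and 20 µg/ml, against 0.68 and 0.70 at 5 and 10 µg/ml. SGO1, which guards centromeric cohesion, was above on all 4 arrays (2.37 and 2.95 at 15 and 20 µg/ml, against 1.46 and 1.97 at 5 and 10 µg/ml). The kinase BUB1 (YGR188C) was above at 15 and 20 µg/ml, at 1.56 and 2.47, against 0.69 and 0.06 at 5 and 10 µg/ml, within 2-fold, a difference of 1.64 ± 0.42. MAD3 and BUB3 were above at 15 and 20 µg/ml, and each also on 1 of the arrays at 5 and 10 µg/ml. MAD1 and MAD2 were at 0.57 and 1.20, and at 0.20 and 1.31, at 15 and 20 µg/ml, against 0.18 and 0.40, and 0.48 and 0.41, at 5 and 10 µg/ml. The list's median difference was 0.30, and 0.70 without the 15 µg/ml array. BFA1 and BUB2, of the spindle position branch, differed by 0.23 ± 0.22 and -0.22 ± 0.30, and the plot of single arrays shows MAD2 beyond 2-fold on the 20 µg/ml array only.

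Among the 28 strains above at 15 and 20 µg/ml and within 2-fold at 5 and 10 µg/ml, 6 lack ESCRT genes, which sort membrane proteins into the vacuole. This list of 15 strains was drawn up after values were seen. All 3 subunits of ESCRT-II were among them. SNF8 (YPL002C) was at 2.22 and 2.27 at 15 and 20 µg/ml, against 0.86 and 0.25 at 5 and 10 µg/ml, a difference of 1.69 ± 0.28. VPS36 (YLR417W) was at 1.78 and 2.23, against 0.15 and 0.58, and VPS25 (YJR102C) at 1.51 and 1.83, against 0.50 and 0.43. The others were VPS20, the ESCRT-III protein that ESCRT-II recruits, at 1.73 and 1.77, against 0.07 and 0.93, the ESCRT-0 protein VPS27, at 1.26 and 1.05, against 0.10 and 0.03, and BRO1, an associated factor, at 1.24 and 2.02, against 0.25 and 0.48. The sections of BRO1 differed, at 2.50 and 0.03, while those of SNF8, VPS36, VPS20, VPS25 and VPS27 each lay on the same side.

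The remaining 9 ESCRT strains were not above on both arrays at 15 and 20 µg/ml, but 8 of their differences were positive. In ESCRT-I, STP22 was at 0.79 and 0.72, against 0.26 and -0.77, with the pairs apart, and SRN2 was at 0.57 and 1.08, against 0.08 and -0.30. The ESCRT-III core strains SNF7, VPS24 and DID4 and the strain without VPS4, the ATPase that takes the filament apart, lay between -0.74 and 0.33 at 15 and 20 µg/ml. The first 3 of these had their lowest of the 4 values at 5 µg/ml, at -2.73, -1.32 and -1.99. VPS28, also of ESCRT-I, differed by -0.36 ± 0.37. The list's median difference was 0.94. Of its 15 strains, 7 were apart and 2-fold higher and 0 lower, against 4.9% and 1.01% of all strains. Under both equal spread and quantile normalization 6 were above at 15 and 20 µg/ml, and on the second section of the layout alone 4 were. The wider vacuolar sorting list of 26 strains, which shares most of these members, had a median difference of 0.75, and 0.48 without the 20 µg/ml array.

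Further strains with higher values at 15 and 20 µg/ml belong to membrane bending, actin and chromatin. RVS167 and RVS161, partners in the protein that bends membranes at endocytic sites, were at 1.35 and 1.79, and 1.02 and 1.25, at 15 and 20 µg/ml, against -0.26 and -0.33, and -0.82 and -0.23, at 5 and 10 µg/ml. ARC18, of the actin-branching Arp2/3 complex, was within 2-fold at 0.82 and 0.87, against -0.87 and -0.46. The list of actin and endocytosis genes had a median difference of 0.49, with 18 of 19 positive, and of 0.32 without the 20 µg/ml array. Of all 5325 strains, 2544 had a positive difference. The list's median of pair means was -0.06 at 15 and 20 µg/ml, against -0.53 at 5 and 10 µg/ml. Only 2 of its strains were above at both 15 and 20 µg/ml. SWR1 (YDR334W), the motor that places the histone variant H2A.Z, was at 1.24 and 2.12, against 0.34 and 0.23. HTZ1, which encodes that variant, was at 1.01 and 1.55, against 0.89 and 0.52. The median difference of the 10 SWR1 and H2A.Z strains was 0.70, with 8 positive, and 0.39 without the 20 µg/ml array. SYF1, a splicing factor that haploids need, and NPR2, of the amino acid signalling pathway to TORC1, were also among the 28, at 1.81 and 2.05 against 0.83 and 0.88, and at 1.13 and 1.74 against 0.30 and 0.92.

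Ribosomal protein strains mostly held their negative shifts. Of 47 strains of the cytosolic small subunit, 22 were below at both 5 and 10 µg/ml, and 21 of these were also below at both 15 and 20 µg/ml. Of 64 strains of the large subunit, 28 were below and 20 stayed so, with 3 within 2-fold, or 5 to 8 when 1 array was left out. RPS0B was at -2.11 and -2.71 at 15 and 20 µg/ml, against -3.69 and -3.13 at 5 and 10 µg/ml, and RPP2B, of the ribosomal stalk, was at -2.76 and -3.22, against -3.56 and -3.01. RPS6A differed by 1.39 ± 0.27 and still lay at -1.97 and -1.41 at 15 and 20 µg/ml, against -3.08 and -3.06 at 5 and 10 µg/ml. The median differences of 0.10 and 0.18 for the small and large subunit were -0.25 and -0.06 after quantile normalization, and the first was -0.12 without the 5 µg/ml array and 0.46 without the 10 µg/ml array, so they have no settled sign. RPL33A, within 2-fold at -0.60 and -0.21, against -2.10 and -1.60, was among the exceptions, and its sections gave 0.21 and 2.67.

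Other chromatin lists differed less. Of 12 strains of the Rpd3L histone deacetylase, 11 had a positive difference, with a median of 0.53, and 2 were below at 5 and 10 µg/ml and within 2-fold at 15 and 20 µg/ml. The median was 0.24 without the 5 µg/ml array, and without the 10 µg/ml array 4 strains came within 2-fold. SIN3, its scaffold, was at 0.86 and 1.05 at 15 and 20 µg/ml, against -0.92 and 0.01 at 5 and 10 µg/ml, before lying at -0.50, -1.93, -3.23 and -3.91 from 25 to 40 µg/ml. RPD3 itself was at 0.73 and 0.66, against 0.13 and 0.01. SNF2, the motor of the SWI/SNF remodeller, stayed below, at -1.70 and -1.27, against -2.93 and -1.82, and the SWI/SNF median difference of 0.22 was -0.05 after quantile normalization, 0.08 without the 5 µg/ml array and 0.38 without the 20 µg/ml array. The SAGA list was at -0.03.

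Genes for tRNA modification resembled the ribosome lists in that most negative shifts held, but not in the median difference. For tRNA modification it was 0.49, with 9 positive and 6 negative differences. It ranged from 0.16 after quantile normalization to 0.61 without the 15 µg/ml array. Of 15 strains, 6 were below at 5 and 10 µg/ml and 5 stayed below. Without the 5 µg/ml array 3 of 8 lay within 2-fold. URM1, UBA4 and NCS2, which place sulphur on certain tRNAs, all held. URM1 was at -1.51 and -1.26 at 15 and 20 µg/ml, against -2.76 and -2.92 at 5 and 10 µg/ml, UBA4 was at -1.07 and -1.49, against -2.23 and -1.97, and NCS2 was at -1.13 and -1.30, against -1.96 and -1.91. All 3 lay nearer the median at the higher pair with the pairs apart. TRM44, which methylates a tRNA, was the 1 strain that lay within 2-fold, at -0.39 and -0.72, against -2.84 and -1.56.

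Mediator, which links transcription factors to RNA polymerase, gave mixed outcomes. Of 14 strains, 8 were below at 5 and 10 µg/ml, with 4 also below at 15 and 20 µg/ml, 1 within 2-fold and 3 mixed, and with 1 array left out 2 to 5 lay within 2-fold. PGD1 and MED2, neighbours in its tail, were at 0.51 and 0.77, and 0.49 and 0.51, at 15 and 20 µg/ml, against -3.79 and -0.84, and -2.60 and -0.67, at 5 and 10 µg/ml. Both differences, 2.95 ± 1.01 and 2.13 ± 0.68, came mainly from the 5 µg/ml array. The cyclin SSN8 and the middle subunit MED1 stayed below, at -1.29 and -1.46, and -1.48 and -1.53, against -2.27 and -1.48, and -1.68 and -1.49. The list's median difference of 0.66 was 0.29 without the 5 µg/ml array and 1.01 without the 10 µg/ml array. In autophagy, 6 of 16 strains were below at 5 and 10 µg/ml and 3 stayed below (5 without the 15 µg/ml array). Among the 3 was ATG8, the protein that marks autophagosomes, at -1.86 and -1.71, against -3.64 and -1.85. Of all strains, 7.1% were below at 5 and 10 µg/ml, and 46.0% of those stayed below. The shares that stayed below in Mediator and autophagy were close to that.

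**Figure D5:**
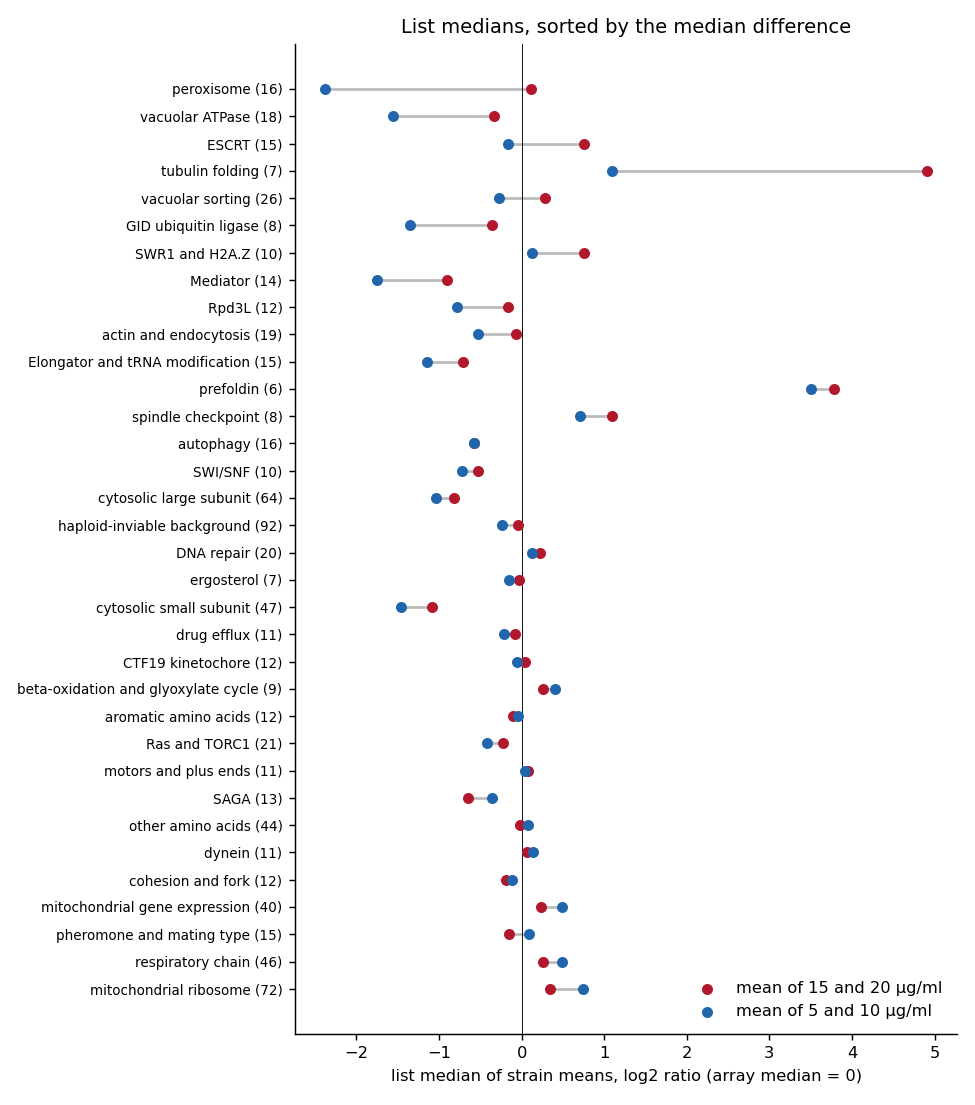
Median over the measured strains (number in brackets) of the pair mean log2 ratio at 15 and 20 µg/ml (red) and at 5 and 10 µg/ml (blue) for each gene list, ordered by the median of the strains' differences. The peroxisome, vacuolar ATPase and GID lists lie nearer 0 at 15 and 20 µg/ml, while the tubulin folding list lies at 4.91, against 1.10, since its middle strain is not the same in both pairs.

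Mitochondrial lists leaned the other way by small amounts. The median difference was -0.28 for 72 strains of the mitochondrial ribosome, -0.28 for 46 of the respiratory chain and -0.21 for 40 of mitochondrial gene expression, with 16, 11 and 15 positive differences. The first was -0.06 without the 15 µg/ml array, -0.62 without the 20 µg/ml array, -0.04 without the 5 µg/ml array and -0.59 without the 10 µg/ml array. Without the 5 µg/ml array the second was -0.15 and the third -0.09. The third was -0.32 without the 20 µg/ml array and -0.35 without the 10 µg/ml array. In each list only 1 strain was apart and 2-fold lower and 0 were higher, against 1.01% and 4.9% of all strains. The count on the lower side by itself shows no lean. At an unadjusted p under 0.05 in limma's test, 6, 8 and 3 strains were lower and 1, 0 and 0 higher, against 2.4% and 6.1% of all strains. Respiratory strains above at 5 and 10 µg/ml mostly lacked parts or assembly factors of the ATP synthase. Of these 9 strains 6 held, or 5 without centring, against 54.6% of all strains above at 5 and 10 µg/ml. ATP1, the alpha subunit of its catalytic sector, was at 1.47 and 1.28 at 15 and 20 µg/ml, against 2.29 and 2.10 at 5 and 10 µg/ml, and ATP5, of the stator stalk, at 1.02 and 1.49, against 2.50 and 2.14. SDH3, of succinate dehydrogenase, was among the 11 respiratory chain strains with a positive difference, at 0.68. MIR1 (YJR077C), the phosphate carrier of the inner membrane and no list member, was at 3.12 and 2.75, against 3.56 and 5.03. As the plot of list medians shows, these lists stayed on the positive side on both pairs.

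The strains with the lowest unadjusted p on the lower side included several of mitochondrial function. HAP4, an activator of respiratory genes, was at 0.40 and 0.33 at 15 and 20 µg/ml, against 1.72 and 1.54 at 5 and 10 µg/ml, a difference of -1.26 ± 0.21. OXA1, which inserts proteins into the inner membrane, was at 0.12 and -0.12, against 1.81 and 1.18, and the protease CYM1 at -0.47 and -0.59, against 0.71 and 0.58. Of the others, the deubiquitinase UBP3 was at -0.82 and -0.60, against 0.86 and 0.90, the osmosensor SHO1 differed by -1.53 ± 0.28, and ECM38, which breaks down glutathione, by -1.01 ± 0.20. PRE6, CNS1, RPC34, NDC80, RRP14 and RPP1, with differences between -1.07 and -1.89, are genes that haploids need.

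On the higher side the lowest p belonged to MAK21, a ribosome assembly factor that haploids need, at 0.61 and 0.54, against -1.51 and -1.54. VAC7, a regulator of a vacuolar lipid kinase, was at 0.88 and 1.07, against -1.17 and -1.16, and lay at 3.99, 2.08, 2.02 and 2.95 from 25 to 40 µg/ml. MNN10, of mannan synthesis, was at 0.36 and 0.12, against -1.69 and -1.82, and SLX5, of a ubiquitin ligase for SUMO-tagged proteins, at 0.89 and 0.64, against -1.11 and -1.23. CPA1, of arginine synthesis, differed by 2.01 ± 0.29. PZF1, MCM3, JAC1, RPL5, MTW1 and SEC21, whose genes haploids need, and RVS167, described above, completed the 12. Of the 92 measured strains in the list of such genes, 8 were apart and 2-fold higher and 2 lower, against 4.9% and 1.01% of all strains, and that list's median difference was 0.17, with 0.07 without the 5 µg/ml array and 0.26 without the 15 µg/ml array.

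PZF1 (YPR186C), which encodes the transcription factor of the 5S ribosomal RNA genes, was the 1 strain that lay above on both arrays at 15 and 20 µg/ml (1.11 and 1.51) and below on both at 5 and 10 µg/ml (-2.92 and -1.83). Its difference was 3.68 ± 0.44, and its sections gave 5.59 and 1.78. Haploids need this gene, and the strain was within 2-fold of the median from 25 to 40 µg/ml. With 1 array left out, 4 strains lay across the median without the 15 µg/ml array, 2 without the 20 µg/ml array and 6 without the 10 µg/ml array.

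Strains below at 15 and 20 µg/ml and within 2-fold at 5 and 10 µg/ml were few and varied. The 15 of them included STE7, the kinase of the mating pathway, at -2.80 and -1.76 at 15 and 20 µg/ml, against -0.94 and 0.01 at 5 and 10 µg/ml, MDL2, a mitochondrial transporter, at -1.29 and -1.87, against 0.13 and -0.39, and HIS1, of histidine synthesis, at -1.65 and -1.59, against 0.11 and -0.75. PTR3, of the amino acid sensor at the cell surface, was at -1.05 and -1.76, against 0.08 and -0.64, and lay between -0.22 and 1.15 from 25 to 40 µg/ml. ALG7, ALD5 and GUA1 had much larger differences in the second section, at -3.83, -1.90 and -3.15, than in the first, at -0.53, -0.53 and -0.26.

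Some held shifts did not begin with these doses. Of the 71 strains above on all 4 arrays, 14 were already above at 1 µg/ml, and of the 174 below on all 4, 34 were already below there. HOT1, a transcription factor of the osmotic stress response, lay at 3.00, 3.36, 3.63, 3.41 and 3.18 at 1, 5, 10, 15 and 20 µg/ml, but between 0.69 and 1.07 from 25 to 40 µg/ml. IZH1, a membrane protein of zinc balance, lay at -2.95, -4.23, -4.33, -4.03 and -4.15 and then between -1.90 and -0.64. CMD1, the calmodulin gene, and KEI1, of sphingolipid synthesis, both needed by haploids, had the same form. In HOT1 the shift sat in the first section, at 6.45 and 6.62 for the pair means at 15 and 20 µg/ml and at 5 and 10 µg/ml, against 0.13 and 0.37 in the second. In CMD1 it sat in the second, at -5.58 and -6.28, with -0.33 and -0.47 in the first. IZH1 and KEI1 were off in both sections, but unequally. For IZH1, in the same order of pairs, the first section gave -6.58 and -6.85, and the second -1.59 and -1.71. For KEI1 the first gave -2.17 and -2.51, and the second -5.58 and -5.59. The lowest spots of the arrays with 15 and 20 µg/ml lay at -6.57 and -6.60. The first section of IZH1 thus sat at that lower end, which its values above average with the second section.

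Across all strains the sections agreed only in part. Pearson's r between sections was 0.30 for the difference between pairs over 5321 strains, 0.45 for the mean at 15 and 20 µg/ml and 0.46 for the mean at 5 and 10 µg/ml over 5325 strains. The lists of the dynein motor, the CTF19 kinetochore complex, chromosome cohesion, microtubule motors, drug efflux, ergosterol and amino acid synthesis had median differences between -0.11 and 0.14, and changed sign under at least 1 alternative except for ergosterol. CIK1, the partner of the motor KAR3, was below on all 4 arrays, at -2.40 and -3.02 at 15 and 20 µg/ml, against -1.62 and -2.19 at 5 and 10 µg/ml. WHI2, a stress regulator in the Ras and TORC1 list, was above on all 4, at 1.48 and 2.12, against 2.93 and 3.41, and lay at 5.65 to 7.41 from 25 to 40 µg/ml.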

How the data were processed

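Tag signals were measured on 2-colour arrays. Per the labels, images came from a GenePix 4000B scanner and were read with GenePix 5.1. What the authors deposited is a log2 ratio for each spot. The numerator dye and any normalization before deposit are not given in the sources used here. The precision is limited by the number of arrays, and no column of array values was left unused (0).

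Of 22575 spots, 18794 carry a gene name from the platform annotation, for 5325 strains, of which 5321 symbols were updated through the gene number. Ratios coded 1e+06 (1 spot on the 4 arrays) were set to missing. Each array was centred on the median of its named spots, and spots were averaged per strain (2 spots for 4439 strains, 12 or 14 for 793). Spots of a strain lie 10971 positions apart in separate sections of the layout, taken to hold different tags. The difference of the pair means was tested with limma's lmFit and eBayes (version 3.58.1 under R 4.3.3, with 2 residual and 2.45 prior degrees of freedom), after a test on simulated data, with Benjamini-Hochberg adjustment over all strains at 0.05. Differences carry limma's standard error.

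The comparison, the 31 gene lists and the rule for named strains were chosen with earlier results of these data known. The 3 added lists, the count of strains with pairs apart, and every member described beyond that rule were chosen after values were seen. The rule names the 12 strains per direction with the lowest unadjusted p where none is called, the 8 largest per class, up to 4 per list with the lowest p, all tubulin folding, prefoldin and checkpoint strains, VMA1 and VMA8, and the 8 largest per direction at 15 and 20 µg/ml among those within 2-fold at 5 and 10 µg/ml. Alternatives covered centring, spread, spot averaging, sections, single arrays, the spread estimate, low ratios and the size of a shift. No tag sequence is shown.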

Additional observations from a re-analysis of the deposited data

Results flagged for a closer look

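Of the spots on the arrays, 1242 have values but no gene name and enter no result above. They were singled out because they moved with benomyl too. At least 2-fold off the array median were 15.0% of them at 15 µg/ml and 15.5% at 20 µg/ml, against 22.4% at 5 µg/ml and 21.0% at 10 µg/ml. On the array without drug the share was 10.8%. Among named spots the shares were 15.8% and 17.9% at 15 and 20 µg/ml, against 24.9% and 22.8% at 5 and 10 µg/ml, and 10.6% without drug. Which strains the unnamed spots stand for is not known here.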

How the results depend on the processing

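No strain was called in either direction in any of the 16 alternative fits in limma, and the lowest adjusted p over them was 0.0938, with the spread taken from all 10 arrays. Counts of classes did depend on the settings. With arrays scaled to equal spread, 13 strains above and 78 below at 5 and 10 µg/ml lay within 2-fold at 15 and 20 µg/ml, and 46 strains above and 34 below at 15 and 20 µg/ml lay within 2-fold at 5 and 10 µg/ml. Quantile normalization gave 60 strains below at 5 and 10 µg/ml and back within 2-fold, 50 newly below at 15 and 20 µg/ml, and 90 apart and 2-fold lower. On the first section alone 42 strains above at 5 and 10 µg/ml came within 2-fold, 24 were newly below and 118 were apart and lower, and on the second alone 45 came within 2-fold, 3 turned upward and 119 were apart and lower. A shift of 1.5 on the log2 scale left 24 held above, 66 held below, 72 below that came within this limit, 0 turned, 16 newly above and 5 newly below. A shift of 1.5-fold gave 173 held above, 335 held below, 82 above that came within 1.5-fold, 1 turned from above and 6 from below, and 45 newly above and 34 newly below. Leaving out 1 array at a time gave 35 to 179 strains above and 159 to 340 below that came within 2-fold, and 1 to 6 turned from below. It also gave 40 to 109 newly above, 27 to 95 newly below, 295 to 439 apart and higher, and 96 to 207 apart and lower. The larger of these counts come with fewer arrays on which a strain has to pass. In the limma fits without 1 array, the lone array was assumed to vary like the other pair. Of 3324 alternative values of the 208 named strains, 3255 kept their sign, and 69 in 38 strains did not. List medians changed sign in 41 of 408 values, in 15 of 34 lists. Leaving out strains 2-fold off at 0 or 1 µg/ml, or the genes that haploids need, was chosen after seeing the data and changed no count by over 1.5 times. No paired analysis was possible because the labels give no replicate numbers. With 1 array per dose, no spread at a fixed dose is known, and no signal over background was used, so the precision of low ratios is not known.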

Other observations

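Some strains above at both 15 and 20 µg/ml and within 2-fold at both 5 and 10 µg/ml belong to no list used here, and their names were chosen after values were seen. RPN4, the transcription factor of proteasome genes, was at 1.35 and 1.63 at 15 and 20 µg/ml, against 0.56 and 0.36 at 5 and 10 µg/ml, and lay between 2.45 and 2.72 from 25 to 40 µg/ml. CSG2 and LCB3, both of sphingolipid metabolism, were at 1.10 and 1.17, and 1.22 and 1.13, against -0.70 and 0.84, and -0.66 and 0.62. In both the 5 µg/ml value was the lowest of the 4. SSK2, a kinase of the osmotic stress pathway, was at 1.12 and 1.20, against -0.02 and 0.96, so its 10 µg/ml value was just inside the 2-fold limit.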
